A study of Mus musculus with 56 samples.

Results

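The AP-1 and immediate early genes described here were the 10 genes Fos, Fosb, Fosl1, Fosl2, Jun, Junb, Jund, Atf3, Egr1 and Ier2, chosen by gene symbol and each matched to 1 Ensembl ID, out of 24410 IDs in the table. Single colon tumor cells had been sequenced by Bead-seq, an RNA-seq method in which the cDNA of each cell is made on beads. The title of the series places the work in the study of Prox1, a homeobox transcription factor, in quiescent colon cancer stem cells. All libraries came from 1 male ApcMin/+ mouse, which carries a germline truncating mutation of the tumor suppressor gene Apc and was aged 12 weeks. Mice of this strain were given dextran sulfate sodium (DSS), a colitis-inducing agent, at 2% in drinking water for 5 days from 10 weeks of age. After digestion, 3 tumors were pooled, live cells negative for Cd31 and Cd45 and positive for Epcam and Cd24 were sorted singly, and cDNAs positive for Lgr5 in a PCR of 32 cycles were sequenced. There was 1 group and no untreated or normal tissue, so no comparison between conditions could be made, and the cells, all from the same mouse, do not count as replicates.

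AP-1 is a dimer of a Fos-family and a Jun-family protein, or of Jun-family proteins alone, that binds DNA through a basic leucine zipper. Atf3 is a stress-inducible leucine zipper factor that can pair with Jun proteins, Egr1 is a zinc finger transcription factor, and Ier2 is a small nuclear protein. Most of these genes are immediate early genes, which are transcribed within minutes of a growth factor, wound or stress signal without new protein synthesis, and tissue dissociation is a known inducer of them. In the intestinal epithelium AP-1 is known for roles in proliferation, repair and tumor growth.

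The table held 56 libraries. In 6 pairs of libraries the values were nearly the same (Pearson's r of 0.957 to 0.992, against 0.782 for the next pair), and each pair was averaged, which left 50 cells. Each of the 6 pairs held a library of i7 index N709, and all libraries of that index were in a pair. The labels do not say why. All averaged cells thus lie in the set of i7 indexes N708 to N710 used below. A cell had a median of 5902.5 genes at 1 TPM or more (transcript abundance scaled by length and to a fixed total per cell), and the range was 1316 to 7234. TPM keep no read depth, so the depth was unknown. Epcam and Cd24a were at 1 TPM or more in 50 of 50 cells, Lgr5 in 38 of 50, and Ptprc, which encodes Cd45, in 0 of 50. Of 12 immune markers 7 were seen in no cell, and their summed level ran from 0 to 80.7 TPM. The same counts were 4 of 6 endothelial markers, with sums of 0 to 13.3 TPM, and 5 of 7 fibroblast markers, with sums of 0 to 8.92 TPM. Csf1r, a macrophage receptor gene, reached 1 TPM in 21 cells and had a highest value of 18.4 TPM, and the fibroblast marker Pdgfra reached 1 TPM in 25 cells and had a highest value of 4.47 TPM. The part of these low sums in the results below was not tested.

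Upstream sequences of 7 of the 10 genes were in the RefSeq promoter table (build GRCm38.p6), and Fosl1, Egr1 and Ier2 had no entry. The 250 bases before the listed start were searched on both strands for TGACGT (a half-site of the cAMP response element), TGACNTCA (a full element with 1 free base), TGANTCA (the AP-1 element) and the CArG box bound by serum response factor, and on the forward strand for TATAAA. The listed starts belong to single transcripts. By the GENCODE coordinates given below, those of Atf3 and Fosl2 lie inside the gene, and that of Fosb by a few bases. Those of Jund and, by a shorter distance, Junb lie before the gene. The windows of Fos, Jun and Atf3 held a match to an element that leucine zipper factors can bind, in capitals, and are shown for that reason. The Fos window is chr12:85473640-85473889 on the plus strand, the Jun window chr4:95052223-95052472 on the minus strand and the Atf3 window chr1:191183334-191183583 on the minus strand.
Fos: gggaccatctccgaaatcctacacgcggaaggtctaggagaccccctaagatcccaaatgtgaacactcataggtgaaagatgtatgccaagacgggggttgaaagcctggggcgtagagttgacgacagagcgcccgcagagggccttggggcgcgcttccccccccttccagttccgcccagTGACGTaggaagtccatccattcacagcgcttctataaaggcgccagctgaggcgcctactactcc
Jun: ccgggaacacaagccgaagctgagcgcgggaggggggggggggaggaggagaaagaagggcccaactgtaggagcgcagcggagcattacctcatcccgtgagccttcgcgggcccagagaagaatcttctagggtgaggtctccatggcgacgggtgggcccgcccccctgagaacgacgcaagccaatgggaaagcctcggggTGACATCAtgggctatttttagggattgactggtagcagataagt
Atf3: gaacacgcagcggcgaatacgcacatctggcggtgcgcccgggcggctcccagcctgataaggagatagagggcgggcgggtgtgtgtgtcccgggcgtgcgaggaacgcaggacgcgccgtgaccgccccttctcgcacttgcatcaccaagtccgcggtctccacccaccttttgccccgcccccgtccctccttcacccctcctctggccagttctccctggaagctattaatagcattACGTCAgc
In Fos, TGACGT began 66 bases before the start, and TATAAA 33 bases before it. In Jun, TGACNTCA was matched 45 bases before the start. In Atf3, TGACGT lay on the opposite strand 8 bases before the start, so it reads ACGTCA in the line above. Among 32851 promoter windows of the same length, TGACGT was in 6.47%, TGACNTCA in 7.49%, TGANTCA in 6.75%, the CArG box in 1.47% and TATAAA in 7.59%. The windows of Fosl2, Fosb, Jund and Junb held no match to these letters.

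The 10 genes differed widely in level, from Ier2, among the most abundant transcripts of the table, to Fosb, the lowest of them, which still had a higher median than 86.3% of IDs. Ier2, Junb, Egr1 and Jund were at 1 TPM or more in all 50 cells, and 1.18% of the 24410 IDs were. Medians reached 100 TPM for 7 members (2.96% of IDs) and 1000 TPM for Ier2, Junb and Egr1 (0.541% of IDs). The median cell had all 10 members at 1 TPM or more, and the lowest cell had 6.

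**Figure D1:**
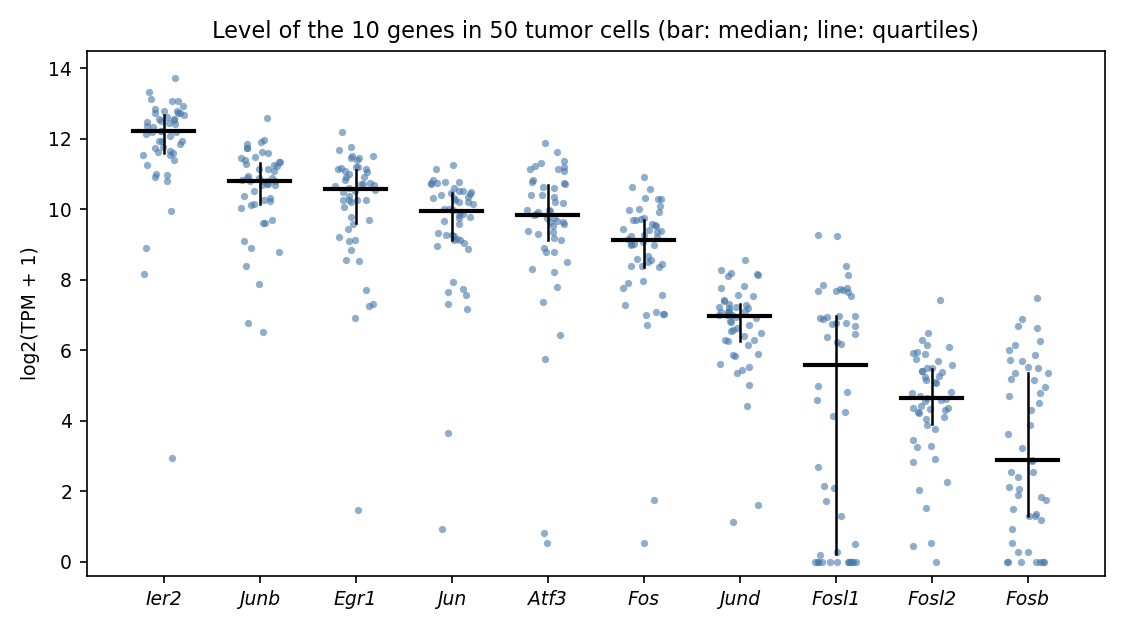
Level of each of the 10 genes in 50 cells. The y axis is log2(TPM + 1), each point is a cell, the thick bar is the median and the thin line spans the quartiles. Ier2, with a median of 4766 TPM, lies at the top and Fosb, with a median of 6.35 TPM, at the bottom, and the points of Fosl1 and Fosb reach down to 0.

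Fos, the first-described member of its family and a typical immediate early gene, lies on chromosome 12 from 85473890 to 85477273 on the plus strand (GRCm38). Its level ran from 0.43 TPM through a median of 555 to 1941 TPM. Fos reached 100 TPM in 48 of 50 cells, and 2 cells stood far below a narrow main body whose quartiles were 331 and 825 TPM. Fosb, a close relative of Fos (chromosome 7, 19302696 to 19310051, minus strand), ran from 0 through 6.35 to 179 TPM. It was listed at 0 in 7 cells and was at 1 TPM or more in 39, which is 78% (exact 95% Clopper-Pearson interval 64.0 to 88.5%, counting error only).

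Fosl1 encodes Fra-1, a slower-induced Fos protein linked to invasion and wound responses (chromosome 19, 5447547 to 5455946, plus strand). It ran from 0 through a median of 51.1 to 620 TPM. The cells divided widely for this gene: 12 were listed at 0 and 21 were at 100 TPM or more. Its SD over cells, 3.34 on the log2(TPM + 1) scale, was above that of 98.6% of the 9166 genes seen in at least 20% of cells. Fosl2 encodes Fra-2 (chromosome 5, 32135801 to 32157842, plus strand) and ran from 0 through 23.8 to 172 TPM. Fosl2 was low in nearly all cells but rarely missing, with 47 cells at 1 TPM or more and an SD of 1.57.

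Among the Jun genes, Jun, the partner that gives AP-1 its strongest activity (chromosome 4, 95049034 to 95052222, minus strand), ran from 0.91 through 993 to 2424 TPM. It was at 1000 TPM or more in 25 cells and at 100 or more in 48. Junb, a family member that can oppose Jun in growth control (chromosome 8, 84974484 to 84978718, minus strand), ran from 90 through 1795 to 6214 TPM. Junb had the smallest SD of the 10 genes, 1.24, and 49 cells at 100 TPM or more. Jund, the member known for steady expression in resting cells (chromosome 8, 70698949 to 70700616, plus strand), ran from 1.16 through 124 to 376 TPM. Jund was thus the lowest of the Jun genes at the median, and 48 cells held 10 TPM or more.

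Atf3 (chromosome 1, 191170296 to 191218039, minus strand) ran from 0.43 through 919.5 to 3745 TPM. It was at 100 TPM or more in 46 cells, and the SD of 2.198 was the third among the 10 after Fosl1 and Fosb. Egr1 (chromosome 18, 34859823 to 34864984, plus strand) ran from 1.78 through 1521 to 4689 TPM. Ier2 (chromosome 8, 84661331 to 84662852, minus strand) ran from 6.67 through 4766 to 13474 TPM, and 33 IDs of the table had a higher median. Both were at 100 TPM or more in 49 cells, and the single cell below that was the same for both.

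By median the order was Ier2, Junb, Egr1, Jun, Atf3, Fos, Jund, Fosl1, Fosl2 and Fosb. The quartiles of neighbours in this order did not overlap at 2 steps, between Ier2 and Junb, with Ier2 higher in 48 of 50 cells, and between Fos and Jund, with Fos higher in 46. At the other 7 steps the quartiles overlapped. Jun, for example, was above Atf3 in 22 of 50 cells although its median was higher.

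Averaged libraries gave a measure of the smallest spread in the data, since they were picked for being alike, and the ratios that follow are a description only. Within the 6 pairs the SD of a library ran from 0.11 on the log2(TPM + 1) scale for Ier2 to 0.53 for Fosb. The SD over cells was 3.86 times that value for Fosl2, the lowest ratio, and 15.2 times for Ier2, the highest. The labels do not say whether the libraries of a pair came from 1 cDNA, so they are not known repeats.

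Jun-family transcripts outnumbered Fos-family transcripts in nearly all cells. The summed level of Jun, Junb and Jund ran from 458 through a median of 2833 to 7102 TPM. The sum of the 4 Fos genes ran from 10.6 through 715 to 1989 TPM. The Jun sum was above the Fos sum in 49 of 50 cells, and the median ratio was 4.18 (0.373 to 190). These are transcript levels, and proteins or dimers were not measured.

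Within the Fos family Fos itself was the highest in 45 cells, Fosl1 in 3, Fosl2 in 2 and Fosb in 0, and the median share of Fos was 83.8%. Within the Jun family Junb was the highest in 42 cells, Jun in 8 and Jund in 0, and the median share of Junb was 62.2%. Ier2 was the highest of all 10 in 45 cells. The 10 genes together held a median of 1.23% of all TPM, and the range was 0.132 to 2.53%.

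The cell with the lowest sum of the 10 genes, N704-N517, was below the median in 9 of them and had 1318 TPM in all, with 104 TPM of Fos, 245 of Jun, 233 of Junb, 85.6 of Atf3, 119 of Egr1 and 480 of Ier2. It had 3935 genes at 1 TPM or more. Single members were far lower in other cells, which are described next because they held 1 or more very low members. Under 5% of a member's own median was reached by 5 cells for Fos, Jun, Jund, Atf3, Egr1 or Ier2, and each of these cells held other members at over 100 TPM. The cell N707-N504 had 0.43 TPM of Fos and 0.91 TPM of Jun beside 1883 TPM of Junb, 298 of Atf3 and 2047 of Ier2. The cell N707-N507 had 2.35 TPM of Fos beside 2384 TPM of Atf3 and 1667 of Egr1. Both cells were thus very low in Fos while Junb, Atf3 and Ier2 were each above 100 TPM, and N707-N504 was also low in Jun, Fosb (0.2) and Fosl1 (0.14).

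Atf3 was the low gene in other cells. The cell N707-N503 had 0.75 TPM of Atf3 and 2.03 TPM of Jund beside 501.5 TPM of Fos, 1279 of Jun and 4314 of Ier2. The cell N706-N504 had 0.43 TPM of Atf3 beside 664.5 TPM of Fos and 1913 of Ier2. The cells lowest in Fos and in Atf3 were therefore different ones.

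The cell N708-N503 was low in Egr1 (1.78 TPM), Ier2 (6.67), Jun (11.5) and Jund (1.16) but held 1089 TPM of Fos and 965 of Atf3. It was also the cell with the fewest genes, 1316, and 85.1% of its TPM fell on 1 ID, Gm10925. The other 4 cells had 3151 to 5923 genes. The part of gene number in these low values was not tested. Over all 50 cells Junb was the 1 member with a Spearman's rho of -0.3 or less with the share of Gm10925, at -0.41 (4.68% of genes). The mean of the 10 genes had -0.08. By Pearson's r Ier2 had -0.66, Jund -0.61, Egr1 -0.57, Jun -0.41 and the mean -0.29. Fos, Fosb, Fosl2 and Atf3 were positive, at 0.05 to 0.21. Ier2, Jund, Egr1 and Jun were the members low in N708-N503, and the part of that cell in Pearson's r was not tested.

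**Figure D2:**
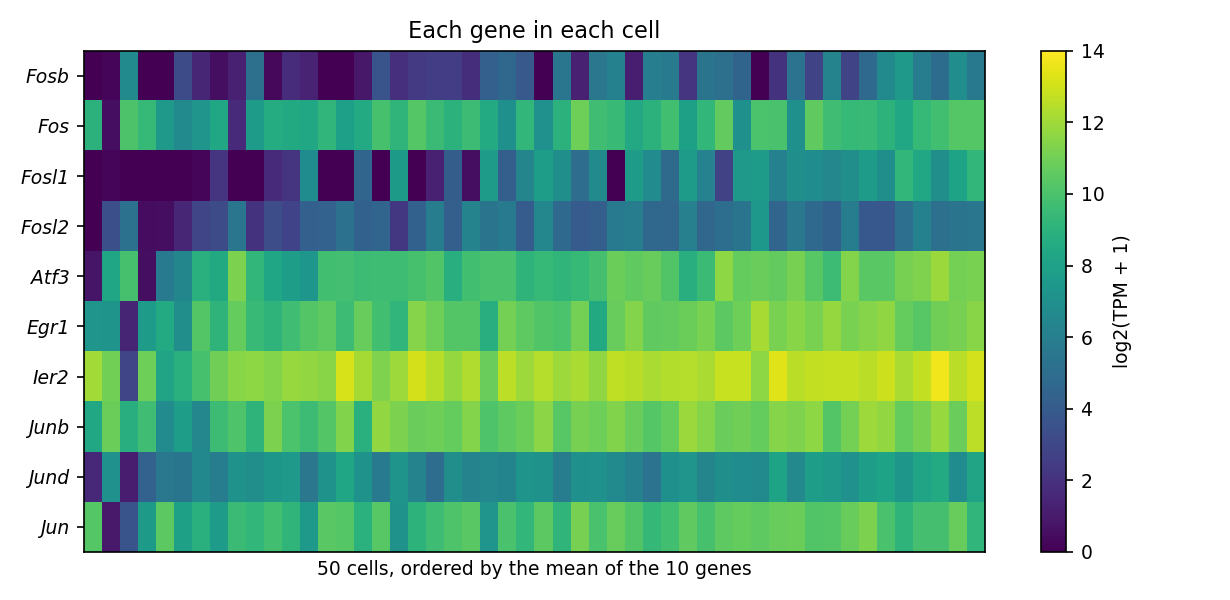
The 10 genes (rows) in 50 cells (columns, ordered from left to right by the mean of the 10 genes). Color gives log2(TPM + 1) from 0 to 14. The dark squares of Fosl1 and Fosb lie mainly at the left, while Ier2 stays bright in all but 1 cell, in which it was at 6.67 TPM.

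The 10 genes tended to be high in the same cells, and by rank the pairs among Egr1, Ier2 and Atf3 were among the closest. Across 50 cells, which share 1 mouse, 1 pool of tumors and a common TPM scale, all 45 pairs had a positive Spearman's rho of log2(TPM + 1). The median was 0.38 and the range 0.02 to 0.70. A rho of 0.3 or more, the size used here to count relations, was found in 34 of 45 pairs. It was found in 4.63% of all pairs of the 9166 genes and in 12.9% of pairs of genes with a median of 100 TPM or more.

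Egr1 and Ier2 had the highest rho, 0.70, followed by Fosl2 with Atf3 at 0.67, Atf3 with Ier2 at 0.63, Junb with Ier2 at 0.62 and Atf3 with Egr1 at 0.61. Egr1, Ier2 and Atf3 each reached 0.3 with all 9 other members by Spearman's rho. By Pearson's r Atf3 had 0.48 with Egr1 and 0.29 with Ier2, Jund had 0.68 and 0.65 with them, and Fos had 0.10 with Atf3, 0.18 with Egr1 and 0.13 with Ier2. By rank Jund had 0.34 and 0.48, and Fos had 0.37, 0.35 and 0.33. The cell N708-N503, with 1316 genes, was very low in Jund, Egr1 and Ier2 beside 1089 TPM of Fos. Its part in Pearson's r was not tested. The 3 pairs among Egr1, Ier2 and Atf3 had a median rho of 0.63, and the 12 pairs of these genes with the Fos family had one of 0.43. The 6 pairs within the Fos family had a lower median, 0.27, and the 12 pairs of a Fos with a Jun gene one of 0.22.

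Fos followed the others loosely. Its rho with the mean of the other 9 was 0.32, the lowest of the 10 over all cells, against 0.72 for Ier2, 0.71 for Egr1 and 0.70 for Atf3. Fos was not the lowest in every set of cells: in i5 indexes N506 to N517 it had 0.38 and Fosl2 0.14, and in i7 indexes N704 to N707 it had 0.32 and Jun 0.26. Fos had a rho of 0.11 with Fosl1, 0.12 with Jund and 0.25 with Jun, its textbook partner. By Pearson's r Fos had 0.45 with Jun, and the cell N707-N504 was very low in both (0.43 and 0.91 TPM). Fosb, which had 0.52 with Atf3, had 0.02 with Jun.

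Junb also went with Jund, at 0.53. Junb and Jun had a rho of 0.49. Jun and Jund, in turn, had one of 0.19. The order of these pairs was not stable: in i7 indexes N708 to N710 Junb and Jund had 0.26 and Jun and Jund 0.39, and by Pearson's r Jun and Junb had 0.27 and Jun and Jund 0.34.

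**Figure D3:**
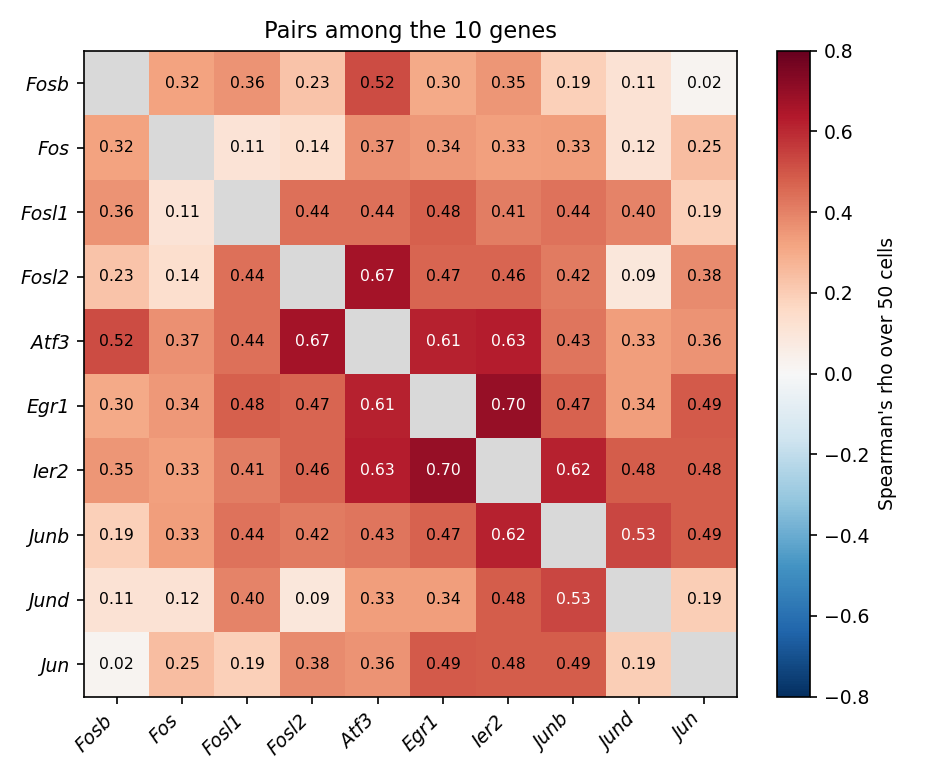
Spearman's rho over 50 cells for each pair of the 10 genes, printed in each square and shown by color from -0.8 to 0.8. All squares are positive. The dark squares join Egr1 with Ier2 (0.70) and Fosl2 with Atf3 (0.67), and the pale ones lie in the rows of Fosb, Fos, Jund and Jun, the lowest being Fosb with Jun (0.02).

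The index sequences of the libraries gave a split by technical label. Of 45 pairs, 43 had a positive rho in each of 2 sets of cells, the 32 with an i7 index of N704 to N707 and the 18 with N708 to N710. The median over pairs was 0.38 and 0.47 in these groups. By i5 index it was 0.47 in N502 to N505 and 0.31 in N506 to N517, where 6 pairs were negative. The group of N502 to N505 held 26 cells and that of N506 to N517 held 27, as some averaged pairs had a library in each.

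Reads of some members cannot be told apart from those of an overlapping gene on the opposite strand if counting ignored strand, and the sources used here do not say whether it did. Junb overlaps Prdx2, a peroxiredoxin gene with a median of 1039 TPM, and their rho was 0.34. Fosl1 overlaps Ccdc85b, with a median of 34.03 TPM, and their rho was 0.13. Jun overlaps the antisense transcript Junos, which had a median of 0 and a highest value of 6.32 TPM. Jund and Atf3 overlap Gm11175 and Gm24748, which are not analysed here. The levels of Junb and Fosl1 are uncertain to that extent.

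**Figure D4:**
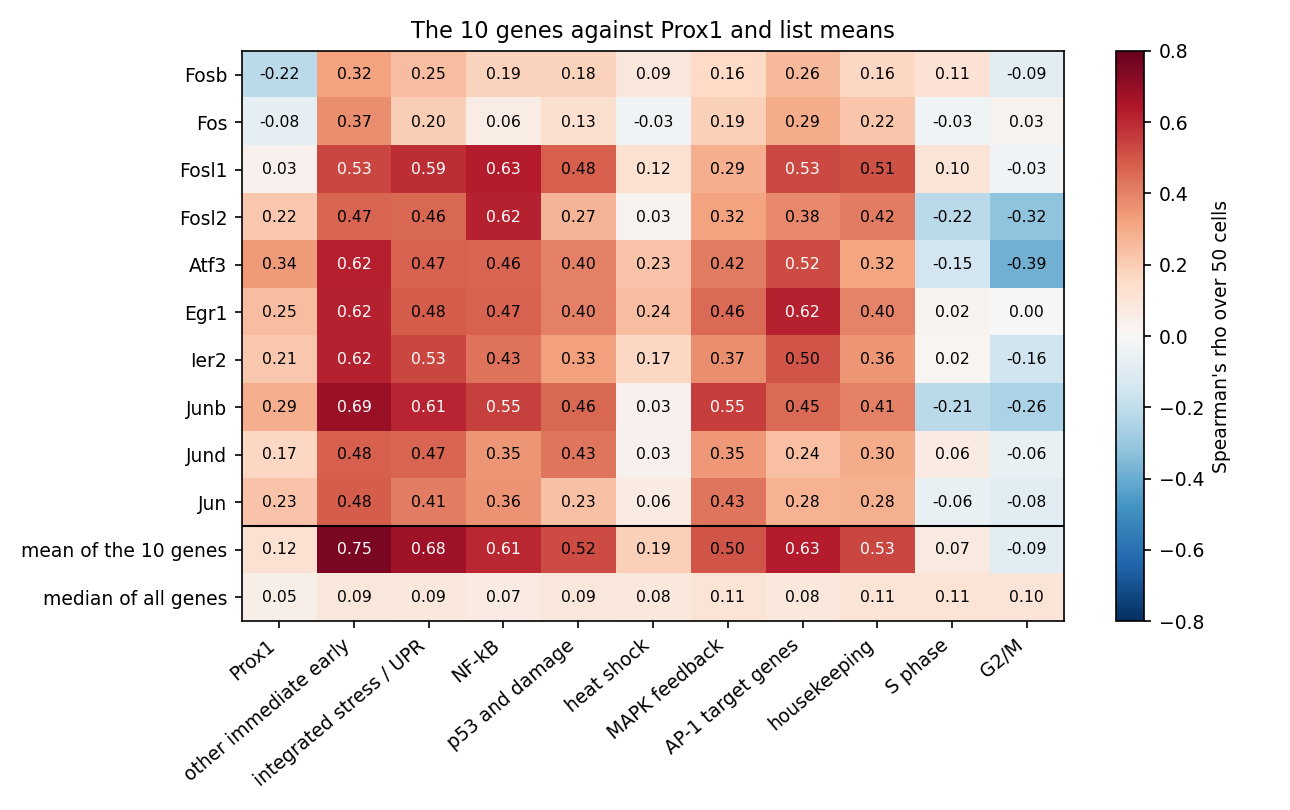
Spearman's rho over 50 cells of each of the 10 genes (rows) with Prox1 and with the means of 10 gene lists (columns), with the mean of the 10 genes and the median of all genes below the line. Color runs from -0.8 to 0.8. The columns of other immediate early genes (0.75 for the mean) and of the integrated stress list (0.68) are the darkest, and those of Prox1 (0.12), heat shock (0.19), S phase (0.07) and G2/M (-0.09) are pale.

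Of the stress programs, the integrated stress and NF-kB lists went with the 10 genes and the heat shock list much less. Each list was taken as the mean of its genes in each cell, on the log2(TPM + 1) scale. The lists were not independent, as 6 of the other immediate early genes were also in another of them. The p53 list held 4 of these (Btg2, Gadd45a, Gadd45b and Plk2). The integrated stress list held 1 (Ppp1r15a) and the NF-kB list 1 (Nfkbia). The mean of the 10 genes had a rho of 0.75 with other immediate early genes, 0.68 with the list of the integrated stress and unfolded protein responses, 0.61 with the NF-kB list and 0.52 with the list of p53 and DNA damage genes. With the heat shock list it was 0.19. The housekeeping list, which was not made of stress genes, gave 0.53, about as much as the p53 list.

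All 10 members had a rho of 0.3 or more with the mean of other immediate early genes (11.4% of all genes tested). Junb had the highest, 0.69, and Fosb the lowest, 0.32. Of the 37 genes in that list 32 were seen in at least 20% of cells. Taken singly, 20 of these 32 had a rho of 0.3 or more with the mean of the 10 genes and 1 had -0.3 or less, against 9.03% and 0.765% of 9156 genes that are not members. The median over the 32 was 0.35, and over the 9156 it was 0.07.

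Btg2, an antiproliferative gene induced early and by p53, led this list at 0.72, with 48 cells at 1 TPM or more and a median of 989 TPM. Zfp36, which encodes a protein that destabilises short-lived mRNAs, had 0.63, the nuclear receptor gene Nr4a1 had 0.60 and the zinc finger gene Egr4 0.59. Myc, the growth-promoting transcription factor and a Wnt target, went the other way, at -0.51. Myc was at 1 TPM or more in 34 cells, and its rho was -0.53 and -0.45 in the 2 groups of i7 indexes.

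With the integrated stress and unfolded protein response list 8 of 10 members reached 0.3 (10.3% of genes). Junb had 0.61 and Fosl1 0.59, while Fosb had 0.25 and Fos 0.20. Of the list, 13 of 16 genes were tested and 8 reached 0.3 with the mean of the 10 genes (9.03% of genes that are not members). They included Atf4, the central transcription factor of the integrated stress response, at 0.53, and Ppp1r15a, whose protein ends that response by guiding dephosphorylation of eIF2, at 0.52. Xbp1, a factor of the unfolded protein response, had 0.49 and Hspa5, the main chaperone of the endoplasmic reticulum, had 0.43. Ddit3, a stress-induced factor that can promote cell death, had 0.18.

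The NF-kB list, made of NF-kB subunits and genes they induce, divided the Fos family. Of the 10 members 8 reached 0.3 (8.68% of genes), with Fosl1 at 0.63 and Fosl2 at 0.62. Fos had 0.06 and Fosb 0.19. All 14 genes of the list were tested and 5 reached 0.3 with the mean of the 10 genes (9.03% of genes that are not members). Among them were Tnfaip3 (0.58) and Nfkbia (0.52), both inhibitors of NF-kB signaling, and the adhesion molecule gene Icam1 (0.55). The difference between Fosl1 and Fos was present in both i7 groups, with 0.63 and 0.82 for Fosl1 and -0.005 and 0.27 for Fos.

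With the p53 and damage list 6 of 10 members reached 0.3 (7.99% of genes). Its leading genes with the mean of the 10 were Btg2, which the list shares with the immediate early genes, and Pmaip1, which encodes the cell death protein Noxa, at 0.61. The cell cycle inhibitor gene Cdkn1a had 0.14. Of 15 genes 4 reached 0.3 with the mean of the 10, against 9.03% of genes that are not members. By i5 group the rho of the list mean was 0.69 in N502 to N505 and 0.35 in N506 to N517.

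No member reached 0.3 with the heat shock list (0 of 10, against 5.02% of genes). Dnajb1, a co-chaperone gene and a target of heat shock factor, had 0.36 with the mean of the 10 genes. It was the only gene of the 15 tested to reach 0.3 (9.03% of genes that are not members). Hspa8, the constitutive chaperone at a median of 3675 TPM, had 0.14, and Hsp90aa1 had -0.11. Hspa1a, the classic inducible gene, was at 1 TPM or more in 11 cells. The list mean had a rho of 0.37 in i7 indexes N704 to N707 and -0.07 in N708 to N710.

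**Figure D5:**
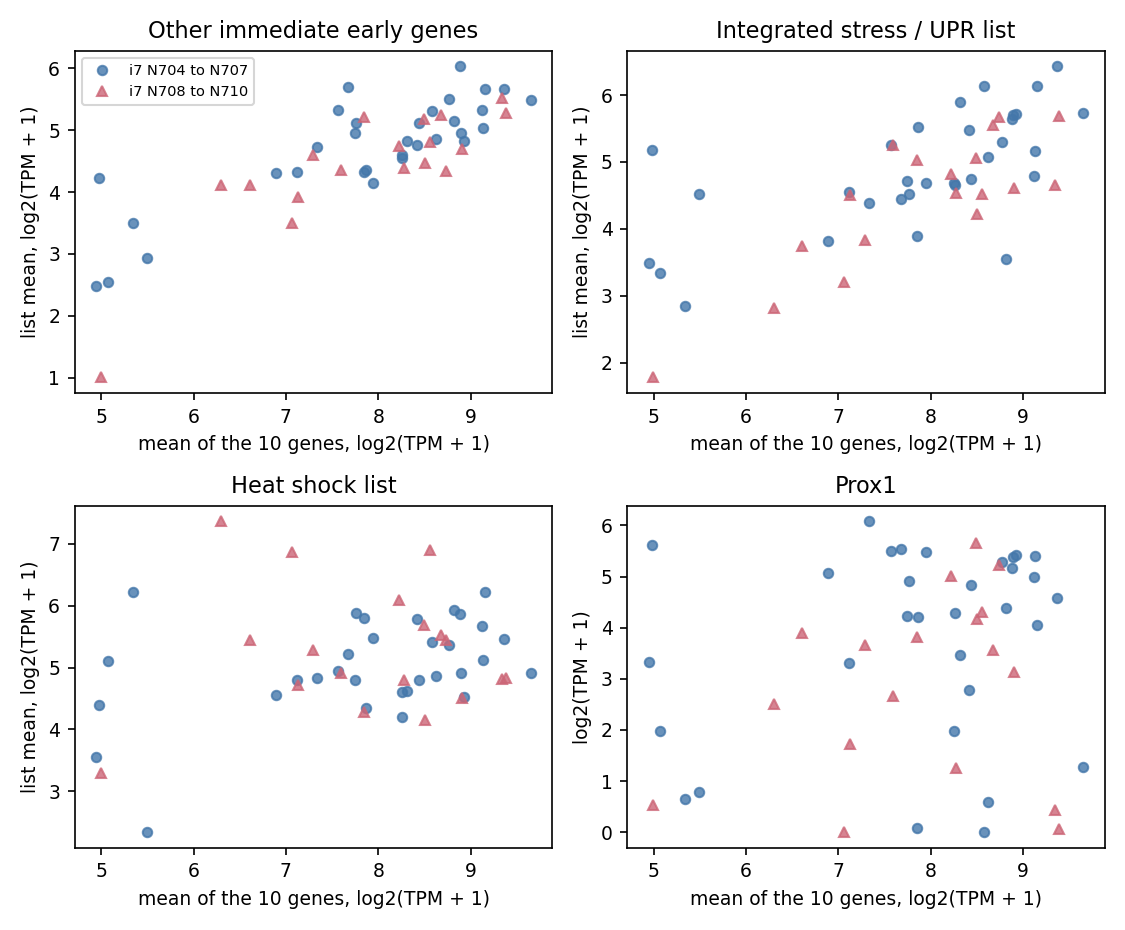
Mean of the 10 genes (x axis) against the mean of other immediate early genes, of the integrated stress and unfolded protein response list and of the heat shock list, and against Prox1 (y axes), all in log2(TPM + 1). Each point is a cell, with circles for i7 indexes N704 to N707 and triangles for N708 to N710. The points rise together in the upper panels (rho of 0.75 and 0.68) and are scattered in the lower ones (0.19 and 0.12).

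The housekeeping list was split. Actb, which encodes beta-actin and is a known target of serum response factor, had a rho of 0.56 with the mean of the 10 genes. Gapdh had -0.04 and Ppia -0.17. Of 10 members 6 reached 0.3 with the mean of this list (7.86% of genes). The number of genes seen in a cell had a rho of 0.12 with the mean of the 10 genes, and 0 of 10 members reached 0.3 with it (19% of genes). By Pearson's r the mean of the 10 genes had 0.43 with it. It had 0.33 without the 2 cells in which the mean of the 10 genes lay farthest from its median. These were N707-N503 and N707-N504, so N708-N503, the cell with the fewest genes (1316), stayed in. Single members ran from -0.04 for Fosb to 0.65 for Egr1 by Pearson's r. The part of gene number in these levels was not tested.

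The relation of the 10 genes to Prox1 was weak over all cells and depended on how the genes were summarised. Prox1 ran from 0 through a median of 14.7 to 66.8 TPM, and 41 of 50 cells held at least 1 TPM. Its rho with the mean of the 10 genes was 0.12, with their summed TPM, added after the data were seen, it was 0.30, and the median over the members was 0.22, beside 0.05 over all genes tested. Only Atf3, at 0.34, reached 0.3, which is 1 of 10 members, against 8.58% of genes.

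The other members fell on both sides of 0. Junb had 0.29, Egr1 0.25, Jun 0.23, Fosl2 0.22, Ier2 0.21, Jund 0.17 and Fosl1 0.03. Fos had -0.08 and Fosb -0.22, and 0 of 10 members were at -0.3 or less (3.26% of genes). Of the 5 cells with the lowest mean of the 10 genes on the log2 scale, N707-N504 had 48.4 TPM of Prox1 and N708-N503 had 0.44. Of the 5 with the highest mean, N705-N505 had 23.01 TPM and N710-N506 had 0.05. Ranked by summed TPM, in which Ier2 and the other abundant members weigh most, the 5 lowest cells all held little Prox1 (0.44 to 4.69 TPM), and the 5 highest held 1.43 to 41.1 TPM. Of the lowest cells, N708-N503 had 1316 genes and N704-N517 had 3935, while N708-N507, N706-N504 and N706-N505 had 5807, 5923 and 6303. The S phase list mean was 5.58 in N706-N504 and 4.26 in N706-N505, but 0.24 in N708-N503. The part of gene number and of the cell cycle in this ranking was not tested.

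The relation to Prox1 was not the same in both i5 groups. The rho of the mean was 0.44 in N502 to N505 and -0.15 in N506 to N517. Junb had 0.63 and -0.10 in these groups, and Atf3 0.53 and 0.18. Without the cells of index N503 the rho over the remaining cells was -0.01. Given the other immediate early genes, the partial rho of the mean with Prox1 was -0.17, and given the S phase list it was 0.17. The direction of this relation was therefore not settled by these cells.

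The members had no common relation to the cell cycle. With the S phase list the mean of the 10 genes had a rho of 0.07, and 0 of 10 members reached 0.3 (14.6% of genes) or -0.3 (0.908%). With the G2/M list it had -0.09. Atf3, at -0.39, and Fosl2, at -0.32, were the 2 members at -0.3 or less (1.6% of genes), and both were negative in each of the i7 and i5 groups. No member reached 0.3 with the G2/M list. Taken singly, Slbp, which binds histone mRNA, was the 1 gene of 22 in the S phase list to reach 0.3, at 0.31. The share among genes that are not members was 9.03%. None of the 19 tested G2/M genes reached 0.3 in either direction, the farthest being the centromere gene Cenpa at -0.25.

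Genes upstream and downstream of AP-1 were read the same way. The share of genes that are not members with 0.3 or more with the mean of the 10 genes was 9.03%. Of the feedback regulators of MAP kinase signaling 13 of 15 were tested, and 7 reached 0.3 with the mean of the 10 genes. They included the phosphatase genes Dusp10 (0.54), Dusp8 (0.54), Dusp5 (0.44) and Dusp1 (0.35). Of the MAP kinases themselves 16 of 18 were tested and 2 reached 0.3, Map2k1 (0.46) and Map2k4 (0.40), which was close to that share. Of serum response factor and its cofactors 5 of 8 were tested and 3 reached 0.3, with Srf at 0.44. The mean of that list reached 0.3 with 8 of the 10 members (7.26% of genes), and that of the feedback regulators with 7 (12.1%).

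Of 23 listed AP-1 target genes 13 were tested and 6 reached 0.3 (9.03% of genes that are not members). Among them were the growth factor gene Hbegf (0.54), the stress cytokine gene Gdf15 (0.42) and the chemokine genes Cxcl2 (0.39) and Cxcl1 (0.36). The list mean had a rho of 0.62 with Egr1, 0.53 with Fosl1 and 0.52 with Atf3, and 6 of 10 members reached 0.3 (7.72% of genes). Jun, at 0.28, and Fos, at 0.29, did not. Other leucine zipper factors gave 4 of 12 tested genes (9.03% of genes that are not members). Of these Atf4 (0.53), Maff (0.47) and Mafk (0.37) were the highest. The rho of Mafk was 0.61 and -0.24 in the i7 groups.

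Of 15 Wnt target genes 3 reached 0.3 and 1, Myc, had -0.3 or less (9.03% and 0.765% of genes that are not members). The Wnt list mean reached 0.3 with 2 of 10 members (9.86% of genes). Wif1 and Nkd1, both inhibitors of Wnt signaling, had 0.41 and 0.35. Of 12 epithelial markers 11 were tested and 5 reached 0.3, with the keratin gene Krt8 at 0.41 and Epcam, a sort marker, at 0.37.

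Among all other genes, those most like the mean of the 10 were Btg2 (0.72), Zfand5 (0.70), Csrp1 (0.69), Ifrd1 (0.66), Ptp4a1 (0.64), Zfp36 (0.63), Pmaip1 (0.61), Rem2 (0.60), Nr4a1 (0.60) and Sc5d (0.59). Genes seen in at least 20% of cells with 1 sign of rho in both i7 groups were ranked for this. Ifrd1, which encodes an immediate early transcriptional regulator, was also among the 3 genes most like Atf3 (0.73), Egr1 (0.68) and Ier2 (0.64). Csrp1, an actin-associated LIM protein gene, was among the 3 for Fosl1, Jund and Ier2. After Myc the lowest genes were Acad12 (-0.48), Atp5o (-0.47), Cdk2ap1 (-0.43) and Vars2 (-0.43).

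Single members had their own companions. Fosl2 was closest to the chaperone gene Hspa5 (0.71) and Rab11fip1 (0.69), Atf3 to Ifrd1 and to Thbs1, an extracellular glycoprotein gene (0.72), and Egr1 to its relative Egr2 (0.67) after Ifrd1. Junb was close to Nfkbia (0.65) and Ppp1r15a (0.64), after the tubulin acetyltransferase gene Atat1 (0.65). Jun was closest to Actr2 (0.62), an actin nucleation gene, and Fosb to Numa1 (0.56). The closest gene to Fos, Dhx32, had 0.49, the lowest such value of the 10 members.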

How the data were processed

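Single colon tumor cells were profiled by Bead-seq, and the authors deposited TPM for 24410 Ensembl IDs in 56 libraries. The submitters' processing notes name Bowtie2 2.2.9, RSEM 1.2.31, bcl2fastq 1.8.4 and the build GRCm38.p4. Settings, annotation release and strand use were not given in the sources used here. No depth can be read from TPM, and a rise of 1 abundant gene lowers the others.

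All columns were matched by their index pair. Symbols and gene coordinates came from GENCODE names for GRCm38, which matched 24235 IDs, and upstream sequences from RefSeq (GRCm38.p6). Libraries with Pearson's r above 0.9 were averaged. Relations were Spearman's rho of log2(TPM + 1) over cells, with no test, since all cells came from 1 mouse. A list's mean left out the members, and the genes of a list were left out of the background for that list. The background was all genes that reached 1 TPM in 20% of cells. Relations were repeated within groups of i7 and of i5 indexes.

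The members and gene lists were chosen with earlier results of these data known. Named genes were the members, the sort genes and Prox1, up to 4 genes per list by number of cells and up to 4 by size of rho with the mean of the members, the 10 highest and 5 lowest genes by that rho, and the 3 closest to each member. Overlapping genes and Gm10925 were named besides, and Ddit3 and Hspa1a were named after their values were seen. Alternatives included other pseudocounts (0.1 and 10), Pearson's r, rescaled TPM, partial rho and leaving out each i5 index. The scripts were tested on simulated data. Software was SciPy 1.17.1, pandas 2.3.3, numpy 2.4.6 and matplotlib 3.10.9 under Python 3.11.15.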

Additional observations from a re-analysis of the deposited data

How the results depend on the processing

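No paired analysis was possible because the labels give 1 group and no replicate numbers. The values that answer a comparison, and others, mainly of single members, were recomputed under the alternatives. The limit for a move was 0.146 for a rho (its approximate standard error over 50 cells). For the number of members seen per cell it was the SD over cells (1.08). Of the other values 409 stayed within their limits and 53 did not. Of the values that answer a comparison 208 stayed within them and 15 moved by more. Among these, 0 changed sign from a rho of 0.3 or more in size. Changes of sign from smaller values, as for Prox1 and the heat shock list, were not counted. Moves by i7 index were the heat shock list at 0.37 in N704 to N707 and -0.073 in N708 to N710, and in N708 to N710 the NF-kB list at 0.775, the S phase list at 0.29 and the G2/M list at 0.067. Moves by i5 index were the p53 list at 0.69 in N502 to N505 and 0.35 in N506 to N517, Prox1 at 0.44 and -0.15, and the S phase list at 0.23 in N506 to N517. With the summed TPM of the members, added after the data were seen, Prox1 had 0.30. The partial rho with Prox1 given the other immediate early genes was -0.17. Given the housekeeping list, an alternative added after the data were seen, the NF-kB list had 0.46. At 100 TPM the median cell had 7 members. Without Junb and Fosl1, also added later, it had 8 at 1 TPM, which was all that remained, so that move followed from the shorter list. The cause of the moves in rho was not tested. Leaving out each i5 index gave ranges of -0.01 to 0.21 for Prox1, 0.70 to 0.82 for other immediate early genes, 0.62 to 0.76 for the integrated stress list, 0.58 to 0.62 for NF-kB, 0.46 to 0.61 for p53, 0.10 to 0.32 for heat shock, 0.03 to 0.22 for S phase, -0.18 to 0.02 for G2/M and 0.34 to 0.46 for the median pair. TPM without 87 ribosomal protein genes and Gm10925 raised all levels by a median of 0.736 on the log2 scale (0.0714 to 2.93 over cells). The 10 genes most like the mean were 10 of 10 the same under a wider filter. A stricter filter could not change them, since all 10 passed it. Depth is unknown in TPM, so a listed 0 does not show that a gene was silent.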

Other observations

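By i5 index, the median of the mean of the 10 genes ran from 7.13 in N504 to 8.82 in N502 on the log2(TPM + 1) scale, with 7 cells in each, and the ranges of these indexes overlapped (4.98 to 8.44 and 6.61 to 9.12). The part of index in the levels of the 10 genes was not tested.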
